A study of Homo sapiens with 4 samples.

Results

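Along the long arm of chromosome 10, 297 genes of the deposited table formed a block in which nearly every gene had a lower FPKM value in TPC1-INAVA than in TPC1-Vector. These members were the genes of chromosome 10 with a start between 58191517 and 133391696 (hg38) and a mean of at least 0.5 FPKM over both groups. FPKM counts sequenced fragments relative to the length of the transcript and to the size of the library. The range held 361 genes, of which 336 reached 0.5 FPKM. A fixed list of names and name prefixes, such as the solute carriers, collagens and antisense transcripts, took out 39 of the 336 and left the 297 members, or 2.41% of the 12305 genes at that level (13165 genes in all). The limits of the range had been set earlier from the same fold changes. The lower values of the members are therefore a description of how they were chosen and carry no test.

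TPC1 is a papillary thyroid cancer cell line in which part of the CCDC6 gene on 10q is fused to the receptor tyrosine kinase gene RET. TPC1-Vector cells carried the empty retroviral vector pQCXIP, and TPC1-INAVA cells (TPC1-C1orf106 in the labels) carried the same vector with the INAVA coding sequence, a gene also called C1orf106. The comparison asks which transcripts differ when INAVA is overexpressed. Both were stable lines selected with puromycin and grown in DMEM with 10% FBS, and both share the TPC1 background. Each group had 2 RNA-seq libraries, and the labels do not say whether these came from separate cultures. The authors deposited 1 value per gene and group, so no SD or replicate check can be computed here, no p-value is given, and the depth behind each value is unknown. INAVA itself, the introduced gene, was at 7.96 FPKM in TPC1-Vector against 123 in TPC1-INAVA, which on the log2 scale is a difference of 3.86.

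Chromosome arms carry genes that mostly do not share a pathway. The distal part of 10q is known for growth restraining genes such as SUFU, an inhibitor of Hedgehog signalling, and the death receptor FAS. It also encodes essential proteins of the cell cycle, mitochondria, ribosome and vesicle coats, among them the mitotic motor KIF11, the cohesin subunit SMC3 and the mitochondrial calcium channel MCU.

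The promoters of 4 members are shown as examples of low fold changes and of an exception. HOGA1 and JMJD1C had among the lowest fold changes, DDIT4 had the lowest one of the members above 40 FPKM, and FAS was not lower. Each sequence runs from 250 bases before to 50 bases after the RefSeq gene start (GRCh38.p14), on the strand of the gene. Capitals mark the CCAAT box (CCAAT), the GC box (GGGCGG), the TATA box (TATAAA) and the E-box (CACGTG), each searched on both strands.
HOGA1, chr10:97584139-97584438, forward strand: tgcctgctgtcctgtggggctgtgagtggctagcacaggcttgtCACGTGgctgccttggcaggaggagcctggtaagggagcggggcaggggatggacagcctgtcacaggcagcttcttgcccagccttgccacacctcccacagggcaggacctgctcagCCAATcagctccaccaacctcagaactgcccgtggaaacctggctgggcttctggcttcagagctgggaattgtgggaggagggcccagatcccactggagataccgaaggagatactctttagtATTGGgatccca
JMJD1C, chr10:63465928-63466227, reverse strand: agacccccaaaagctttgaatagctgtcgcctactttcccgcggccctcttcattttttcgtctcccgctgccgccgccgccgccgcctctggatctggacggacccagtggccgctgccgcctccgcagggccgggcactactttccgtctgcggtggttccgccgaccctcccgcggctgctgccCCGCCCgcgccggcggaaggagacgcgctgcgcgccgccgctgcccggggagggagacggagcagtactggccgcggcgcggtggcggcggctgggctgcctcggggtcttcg
DDIT4, chr10:72273674-72273973, forward strand: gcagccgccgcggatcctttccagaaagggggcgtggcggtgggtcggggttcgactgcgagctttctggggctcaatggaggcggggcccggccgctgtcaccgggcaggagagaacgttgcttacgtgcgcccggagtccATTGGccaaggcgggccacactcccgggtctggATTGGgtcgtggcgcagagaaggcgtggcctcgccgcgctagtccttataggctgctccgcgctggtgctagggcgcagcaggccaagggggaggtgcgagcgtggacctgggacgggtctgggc
FAS, chr10:88990548-88990847, forward strand: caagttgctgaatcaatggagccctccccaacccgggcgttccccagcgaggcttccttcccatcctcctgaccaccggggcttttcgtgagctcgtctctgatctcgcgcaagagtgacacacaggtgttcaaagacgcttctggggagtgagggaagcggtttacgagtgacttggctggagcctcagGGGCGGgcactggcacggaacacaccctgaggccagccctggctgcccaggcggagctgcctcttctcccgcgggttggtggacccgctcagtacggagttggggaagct
The HOGA1 promoter held 2 CCAAT boxes and 1 E-box, and its GC content was 60.7%. DDIT4 had 2 CCAAT boxes and a GC content of 69.7%. A single GC box was found in the promoters of JMJD1C (GC content 73.0%) and FAS (63.0%).

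Fold changes were computed as log2(FPKM + 0.5) in TPC1-INAVA minus the same in TPC1-Vector, a scale that shrinks changes of weak genes. The median log2 fold change of the 297 members was -0.33, a ratio of 0.797. Of the members, 283 were lower in TPC1-INAVA and 14 were not, against 49.2% lower among all 12305 genes. A change of at least 1.2-fold downward was found in 198 members (66.7%), against 9.63% of all genes, and upward in 4 members, against 10.6%. At 1.5-fold, 31 members were lower (background 1.45%) and 1 was higher (2.24%). At 2-fold, 5 were lower (0.244%) and 0 were higher (0.61%). The choice of the members fixed these shares, and nothing is read from their distance to the background. Members made up 16.7% of all genes that were at least 1.2-fold lower. In bulk RNA, fewer cells with a given level and less RNA per cell cannot be told apart.

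The spread of the members around their median was close to that of other genes. Their interquartile range was 0.253 on the log2 scale, and that of the 11969 genes outside the range was 0.236, around a median of 0.0082. Outside the range, the 150 other genes of chromosome 10 had a median of 0.0041, with 74 of them lower. The curve of the members thus had nearly the form of the other curves, moved to lower values, as the cumulative plot shows.

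**Figure D1:**
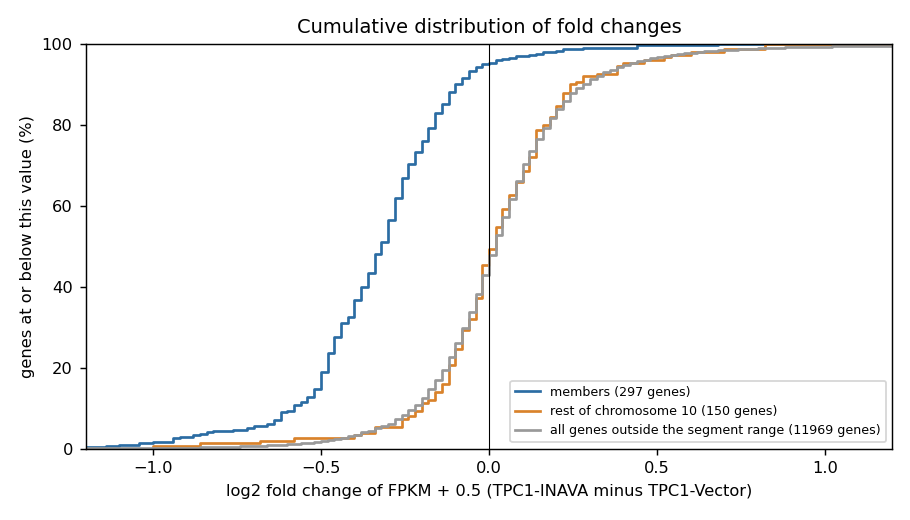
Cumulative share of genes (%, vertical axis) at or below each log2 fold change of FPKM + 0.5 (TPC1-INAVA minus TPC1-Vector, horizontal axis, shown from -1.2 to 1.2) for the 297 members, the 150 other genes of chromosome 10 and the 11969 genes outside the segment range. The curve of the members crosses the middle at -0.33, whereas both other curves cross it near 0.

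The first and the last member of the segment were both lower, but 4 of the first 10 genes of the range were not. The limits were chosen from these fold changes, so the values at the edges are a description and carry no test. The range measures 75.2 Mb. Before it, the last gene at 0.5 FPKM was ZWINT, a kinetochore protein, at 139 FPKM in TPC1-Vector against 153 in TPC1-INAVA (log2 fold change 0.14). A gap of 1.83 Mb followed. IPMK, an inositol phosphate kinase, opened the segment at 5.26 and 4.11 FPKM (-0.32). The iron-sulphur protein gene CISD1 was next at 37.8 and 32.8 FPKM (-0.20), and the ubiquitin-conjugating enzyme gene UBE2D1 stood at 24.6 and 19.6 FPKM (-0.32). In the 10 Mb before the segment only 2 of 14 genes were lower, with a median of 0.12. RET, proximal to the segment, was at 8.77 and 10.2 FPKM (0.20). CCDC6 lay within the range and is not a member, since the rule leaves it out by name. It had 0.532 and 0.647 FPKM (0.15).

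At the distal end, the last members were TUBGCP2, which encodes a subunit of the gamma-tubulin complex, the fatty acid oxidation enzyme gene ECHS1 and PAOX, a polyamine oxidase gene. TUBGCP2 was at 34.9 FPKM in TPC1-Vector against 27.9 in TPC1-INAVA (-0.32), ECHS1 at 129 and 93.8 FPKM (-0.45), and PAOX at 1.67 and 0.882 FPKM (-0.65). TUBGCP2 shares its deposited position with ZNF511, so reads of the overlap may be divided between them. After PAOX the table held 2 more genes at this level, SPRN (-0.09) and MTG1 (-0.14), which share 1 position. Both were lower by less than 1.2-fold.

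Divided into windows of 5 Mb from its start, the segment had a median below 0 in all 16 windows. Medians ran from -0.45 in the last window, which held 5 members, to -0.17 in the first, which held 13. The best filled window, from 40 to 45 Mb, held 47 members with a median of -0.35, and 46 of them were lower. Spearman's correlation between the fold change of a member and that of the next was 0.076 over 253 pairs with positions of their own, which share the same libraries.

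**Figure D2:**
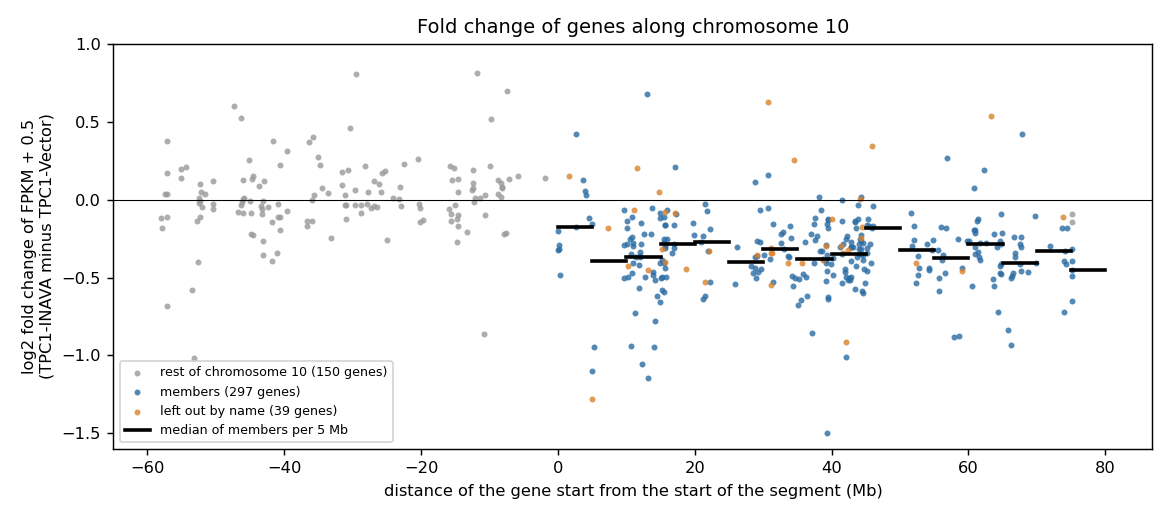
Log2 fold change of FPKM + 0.5 (TPC1-INAVA minus TPC1-Vector, vertical axis) of each gene of chromosome 10 at a mean of at least 0.5 FPKM against the distance of its start from the start of the segment in Mb (horizontal axis). Blue points are the 297 members, orange points the 39 genes left out by name, grey points the 150 other genes, and black lines the medians of members per 5 Mb, all of which lie below 0.

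Genes of the range that are not members had similar medians in the same contrast, from which the range itself was chosen. Exceptions were more common among them than among members, of which 95.3% were lower. The 39 genes left out by name had a median of -0.31, and 31 of them (79.5%) were lower. Another 21 genes of the range stayed under 0.5 FPKM, with a median of -0.30 and 17 (81.0%) lower. Some of these share their deposited position with a member, as FAM196A does with DOCK1. The 16 members between 0.5 and 1 FPKM had a median of -0.25, and 13 of them were lower, against 420 of all 883 genes at that level. Just above the limit of 0.5 FPKM lay NUTM2A (0.626 FPKM in TPC1-Vector against 0.377 in TPC1-INAVA), FANK1 (0.588 and 0.422) and C10orf95 (0.507 and 0.518). Just below it lay LOC102723703 (0.672 and 0.320), FAM196A (0.620 and 0.312) and PDZD7 (0.656 and 0.258).

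Members were lower at each level of expression compared. The 180 members at or above 10 FPKM had a median of -0.34 and 178 were lower. All 21 at or above 100 FPKM were lower, with a median of -0.30 and values between -0.54 and -0.11. RPS24, a protein of the small ribosomal subunit, was the highest of all at 1531 FPKM in TPC1-Vector against 1306 in TPC1-INAVA (-0.23). Next was PSAP, the precursor of the saposins that activate lysosomal lipid hydrolases, at 285 and 245 FPKM (-0.22). The nucleolar helicase gene DDX21 was at 194 and 164 FPKM (-0.24).

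Among the 10 highest members, GHITM and SRGN lay farthest apart. GHITM, an inner mitochondrial membrane protein gene, was at 197 and 135 FPKM (-0.54). SRGN, a proteoglycan of secretory granules, was at 186 and 172 FPKM (-0.11). Between them came the mitochondrial peroxiredoxin gene PRDX3 (193 and 157 FPKM, -0.30), USMG5, an accessory subunit of ATP synthase that shares its position with TAF5 (187 and 151 FPKM, -0.31), and VDAC2, a channel of the outer mitochondrial membrane (185 and 151 FPKM, -0.28). The mitotic checkpoint gene BUB3 was at 163 and 141 FPKM (-0.21), and PPA1, an inorganic pyrophosphatase, at 171 and 133 FPKM (-0.37).

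**Figure D3:**
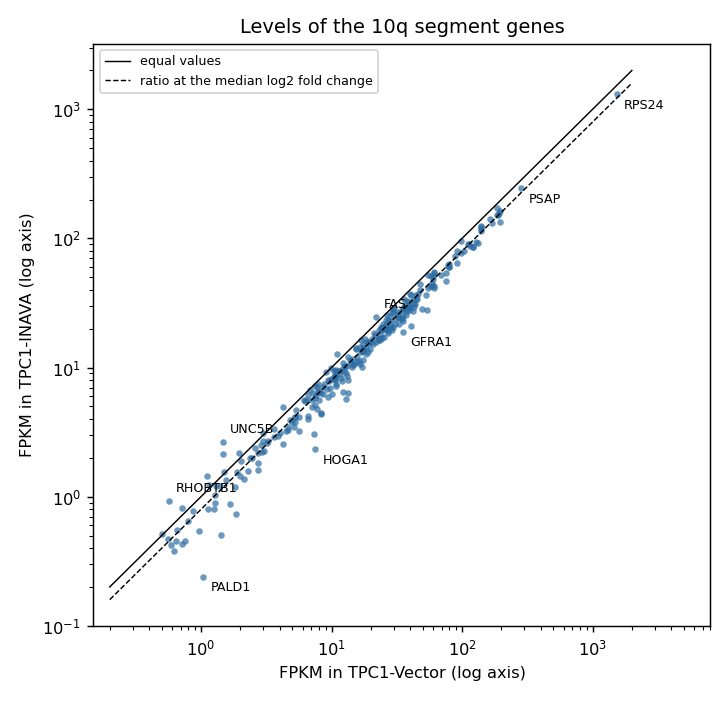
FPKM in TPC1-INAVA (vertical log axis) against FPKM in TPC1-Vector (horizontal log axis) for each of the 297 members. The solid line marks equal values and the dashed line the ratio of 0.797 given by the median fold change of FPKM + 0.5. Of the points, 283 lie below the solid line, and the highest is RPS24 at 1531 and 1306 FPKM. Weak members can lie far from the dashed line, such as PALD1 (1.04 and 0.240 FPKM) and RHOBTB1 (0.566 and 0.929 FPKM).

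The lowest fold change belonged to HOGA1 (chr10:97584345-97612798), a mitochondrial aldolase of hydroxyproline breakdown, with 7.48 FPKM in TPC1-Vector against 2.33 in TPC1-INAVA (-1.50). C10orf54, which encodes the immune checkpoint receptor VISTA, was at 7.35 and 3.05 FPKM (-1.15). Its deposited span, chr10:71396934-71815947, covers the neighbouring cadherin gene CDH23, so its value may hold reads of both. JMJD1C, a member of the JmjC histone demethylase family, was at 12.8 and 5.72 FPKM (-1.10). These values share 1 position with its antisense gene JMJD1C-AS1, which is left out by name and had a fold change of -1.28.

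PALD1, a phosphatase domain gene, was at 1.04 and 0.240 FPKM (-1.06). The long noncoding RNA OLMALINC stood at 13.3 and 6.34 FPKM (-1.01). DDIT4, which encodes the stress induced mTORC1 inhibitor REDD1, was at 54.3 and 28.0 FPKM (-0.94). REEP3, which clears endoplasmic reticulum from mitotic chromosomes and lies next to JMJD1C, was at 40.9 and 21.0 FPKM (-0.94).

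STOX1, a winged helix gene, had 1.43 and 0.505 FPKM (-0.94), and the phosphatase gene LHPP had 1.85 and 0.728 FPKM (-0.94). GFRA1, a GDNF co-receptor of RET, was at 35.1 and 18.8 FPKM (-0.88). Among these 10 genes, DDIT4, REEP3 and GFRA1 were above 25 FPKM in TPC1-Vector, while PALD1, STOX1 and LHPP were below 2 FPKM there. Several low fold changes lay in a stretch of 3.44 Mb from TSPAN15 to MCU, picked after its values were seen. It held 22 members with a median of -0.44, of which 21 were lower and 17 were at least 1.2-fold lower. Of all members, 95.3% were lower and 66.7% were at least 1.2-fold lower.

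Exceptions were few and mostly weakly expressed. Of the 14 members that were not lower, 11 had a mean under 5 FPKM, whereas 22.9% of all members did. UNC5B, a netrin receptor gene, had the highest fold change at 1.46 FPKM in TPC1-Vector against 2.64 in TPC1-INAVA (0.68), and it lies within the stretch from TSPAN15 to MCU. The metalloproteinase disintegrin gene ADAM12 was at 1.46 and 2.13 FPKM (0.42). ATRNL1, an attractin-like gene, was at 1.10 and 1.43 FPKM (0.27).

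ZNF503, a transcriptional repressor gene that shares its position with ZNF503-AS2, was at 4.22 and 4.95 FPKM (0.21). PPAPDC1A, a lipid phosphatase gene, was at 11.04 and 12.7 FPKM (0.19). FAS, at 22.1 and 24.7 FPKM (0.16), had the highest level of these exceptions. It shares its position with the smooth muscle actin gene ACTA2, which is left out by name and had a fold change of 0.63.

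A run of 4 consecutive members near the start of the segment, RHOBTB1, ARID5B, RTKN2 and ZNF365, was not lower over 1.80 Mb. RHOBTB1, a BTB domain gene, was at 0.566 and 0.929 FPKM (0.42), and the transcription factor gene ARID5B was at 1.96 and 2.18 FPKM (0.12). RTKN2 was at 2.96 and 3.10 FPKM (0.06), and ZNF365 at 1.505 and 1.55 FPKM (0.03). CDK1, which stands just before them, was at 140 and 124 FPKM (-0.17). The remaining exceptions were ADIRF (0.715 and 0.812 FPKM), TLL2 (9.08 and 9.19), C10orf95 and NANOS1 (1.14 and 1.23).

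Members were then grouped by function into 10 lists, which held 200 of the 297 members. Genes named as examples below, outside the tumour suppressors and the lists of complexes, were chosen after their values were seen. List medians lay between -0.41 and -0.25, beside -0.33 for all members, and the 97 members of no list had a median of -0.34. The counts below stand beside 95.3% lower and 66.7% at least 1.2-fold lower among all members. Among all genes these shares were 49.2% and 9.63%. No count is read as a result about the function of a list. The lists are broad and hold some genes with another main role, such as the aminopeptidase gene XPNPEP1 among RNA processing genes, the arginyltransferase gene ATE1 among vesicle genes, the dynactin gene ACTR1A among chromatin genes and the helicase gene DHX32 among metabolic genes. In the plot by gene group, each list spreads widely around the common median.

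**Figure D4:**
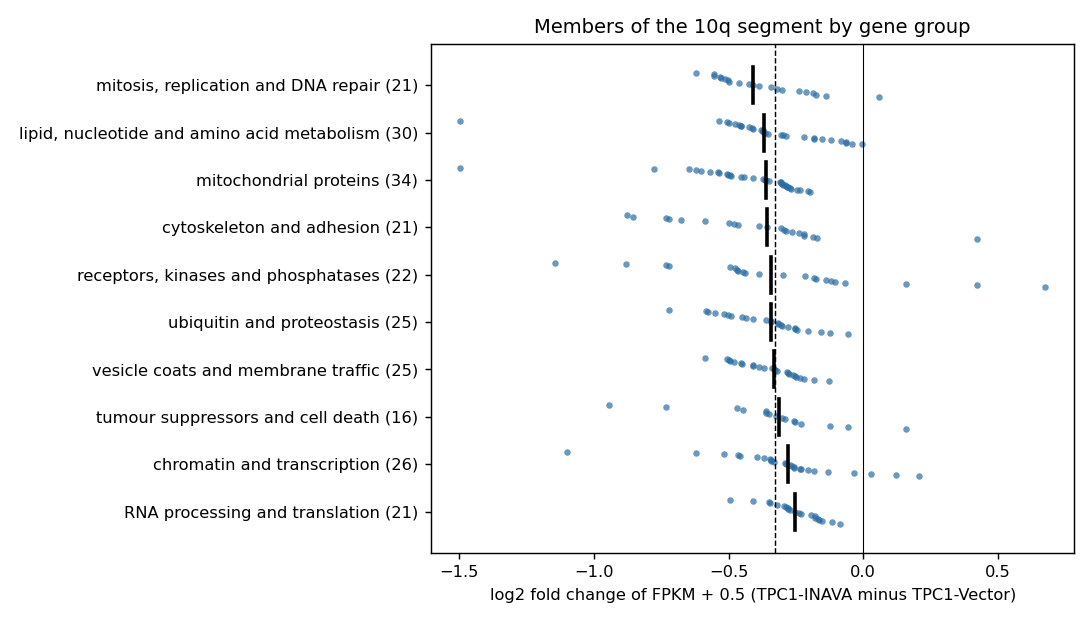
Log2 fold change of FPKM + 0.5 (TPC1-INAVA minus TPC1-Vector, horizontal axis) of members in 10 functional lists (vertical axis, number of members in brackets). Points are genes, black bars the list medians, which run from -0.41 to -0.25, and the dashed line the median of all 297 members.

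The list of tumour suppressor and cell death genes held 16 members, with a median of -0.31, 15 lower and 10 at least 1.2-fold lower. It also holds genes with another main role, among them TSPAN15, DDX50, TNKS2 and BAG3, which stand in other lists too. BMPR1A, a receptor of bone morphogenetic proteins, was at 22.8 FPKM in TPC1-Vector against 16.3 in TPC1-INAVA (-0.47), and SUFU at 8.77 and 7.41 FPKM (-0.23). The tetraspanin gene TSPAN15 had 17.1 and 10.1 FPKM (-0.73).

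PDCD4, an inhibitor of translation initiation that shares its position with BBIP1, was at 11.6 and 8.91 FPKM (-0.36). The tankyrase gene TNKS2 was at 25.8 and 20.02 FPKM (-0.36) and the deacetylase gene SIRT1 at 17.4 and 14.1 FPKM (-0.29). MXI1, an antagonist of MYC, was at 4.77 and 3.91 FPKM (-0.26). LZTS2 (-0.30, sharing its position with PDZD7), DDX50 (-0.35) and CCAR1 (-0.25) were lower as well. The smallest differences of the list were those of the co-chaperone gene BAG3 (48.0 and 44.0 FPKM, -0.12) and the deubiquitinase gene STAMBPL1 (7.52 and 7.22 FPKM, -0.06), and FAS was the gene that was not lower.

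Genes of mitosis, replication and DNA repair had the lowest list median, -0.41 over 21 members, with 20 lower and 15 at least 1.2-fold lower. HELLS, a chromatin remodeller needed for DNA methylation, was at 35.3 and 22.7 FPKM (-0.62). KIF11, the motor that separates spindle poles, was at 60.7 and 41.2 FPKM (-0.55). CEP55, which acts in the final cut of cell division, was at 133 and 92.8 FPKM (-0.51), and the proliferation marker MKI67 at 69.1 and 51.9 FPKM (-0.41). The DNA damage response gene DCLRE1A had 14.5 and 10.1 FPKM (-0.50). CDK1, the kinase that starts mitosis, stood above the list median at -0.17.

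All 34 members of the mitochondrial list were lower, 30 of them at least 1.2-fold, with a median of -0.36. The list also holds genes whose products act mainly outside mitochondria, among them AIFM2, FRA10AC1 (-0.65), NT5C2 (-0.53), IDE (-0.49), PPA1 (-0.37) and GOT1 (-0.31). AIFM2, which encodes the ferroptosis suppressor FSP1, was at 32.7 and 21.9 FPKM (-0.57). The ribosomal subunit genes MRPS16 (61.1 and 42.9 FPKM, -0.50) and MRPL43 (75.996 and 53.8 FPKM, -0.49) lay close to each other. GLUD1, glutamate dehydrogenase, was at 103 and 79.7 FPKM (-0.37), and PPIF, cyclophilin D of the permeability pore, at 139 and 118 FPKM (-0.24).

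RNA processing and translation genes had the highest list median, -0.25. All 21 were lower, yet 10 reached 1.2-fold. The exosome gene EXOSC1 was at 32.6 and 24.4 FPKM (-0.41) and the nucleolar gene NOLC1 at 113 and 90.5 FPKM (-0.32). HNRNPH3, a splicing regulator, was at 91.0 and 80.3 FPKM (-0.18). Of 26 chromatin and transcription genes, 23 were lower and 15 at least 1.2-fold lower, with a median of -0.28. HIF1AN, the asparagine hydroxylase that restrains HIF, was at 18.4 and 12.7 FPKM (-0.52). The kinase gene CHUK, whose product IKK-alpha acts in NF-kB signalling, was at 23.3 and 16.7 FPKM (-0.47). TCF7L2, a transcription factor of Wnt signalling, was at 8.56 and 7.08 FPKM (-0.26), while LDB1 was at 16.8 and 16.4 FPKM (-0.03).

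Every one of the 25 vesicle traffic genes was lower, with a median of -0.33 and 18 at least 1.2-fold lower. The small GTPase gene ARL3 was at 12.1 and 7.91 FPKM (-0.59), and VPS26A, a retromer subunit, at 79.4 and 59.7 FPKM (-0.41). The annexin genes ANXA7 (115 and 87.5 FPKM, -0.39) and ANXA11 (78.6 and 62.5 FPKM, -0.33) differed little from each other. Cytoskeleton and adhesion genes had a median of -0.36 over 21 members, 20 lower and 15 at least 1.2-fold lower. VCL, the focal adhesion protein vinculin, was at 121 and 85.5 FPKM (-0.50). MYOF, a ferlin of the plasma membrane, was at 74.8 and 46.6 FPKM (-0.68).

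Among 25 genes of ubiquitin and protein quality control, all were lower and 18 at least 1.2-fold lower, with a median of -0.34. HTRA1, a secreted serine protease, was at 13.4 and 7.96 FPKM (-0.72), and the F-box gene BTRC at 10.7 and 8.61 FPKM (-0.30). Metabolic genes numbered 30, all lower and 20 at least 1.2-fold lower, with a median of -0.37. OAT, ornithine aminotransferase, was at 92.0 and 64.7 FPKM (-0.50), and the lysosomal lipase gene LIPA at 36.9 and 28.2 FPKM (-0.38). Some metabolic genes differed little, such as the adenosine kinase gene ADK (54.8 and 52.5 FPKM, -0.06) and the glutathione transferase gene GSTO1 (99.0 and 96.1 FPKM, -0.04). In the list of receptors, kinases and phosphatases, 19 of 22 were lower, 12 at least 1.2-fold lower and 2 at least 1.2-fold higher, with a median of -0.34. SHOC2, a scaffold of RAS and RAF signalling, was at 24.0 and 17.6 FPKM (-0.44), and PPP3CB, a catalytic subunit of calcineurin, at 28.5 and 20.1 FPKM (-0.50).

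Several members act in a complex or a shared process with genes that lie elsewhere in the genome. Over 6 lists, which hold complexes with their regulators and interactors and, for mitochondrial DNA maintenance, separate enzymes of a process, the 14 genes encoded in the segment had a median of -0.32, all lower and 11 at least 1.2-fold lower. The 64 genes of these lists elsewhere had a median of 0.02, with 28 lower and 1 at least 1.2-fold lower. The range was chosen from these fold changes, so the contrast between these sets follows from that choice and carries no test. For 13 of the 14 genes, no gene elsewhere in the same list had a lower fold change. The exception was POLR3A, the catalytic subunit of RNA polymerase III, at 12.2 and 10.9 FPKM (-0.15), since POLR3GL of chromosome 1 was at -0.17.

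The mitochondrial calcium uniporter had the lowest median in the segment among these lists. Its pore gene MCU was at 42.1 FPKM in TPC1-Vector against 27.2 in TPC1-INAVA (-0.62). Of 5 listed genes elsewhere, SMDT1 was the lowest at 4.90 and 3.49 FPKM (-0.44), listed on an alternate contig, and MCUR1 the highest at 0.07.

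In the cohesin list, SMC3, which closes the ring around sister chromatids, was at 53.2 and 36.7 FPKM (-0.53). WAPL, which releases the ring from DNA, was at 32.7 and 24.2 FPKM (-0.43). The 12 listed genes elsewhere lay between -0.24 and 0.15, and SMC1A, the direct partner of SMC3, was at 33.6 and 35.4 FPKM (0.08).

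COPII coat genes in the segment were SEC24C (39.0 and 29.3 FPKM, -0.41), SAR1A (98.5 and 77.8 FPKM, -0.34), SEC23IP (21.7 and 17.8 FPKM, -0.28) and SEC31B (1.29 and 1.02 FPKM, -0.23). SEC23IP is an interactor of the coat rather than a subunit. The 10 listed genes elsewhere lay between -0.10 and 0.19. The large scaffold subunit of the initiation factor eIF3, EIF3A, was at 140 and 123 FPKM (-0.19), below all 11 subunits elsewhere, which lay between -0.07 and 0.19.

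For mitochondrial DNA maintenance, the nuclease gene DNA2 was at 15.7 and 10.996 FPKM (-0.50), and C10orf2, which encodes the helicase Twinkle, at 14.5 and 11.7 FPKM (-0.30). TFAM, which packages mitochondrial DNA, was at 45.7 and 37.3 FPKM (-0.29), and the RNA helicase gene SUPV3L1 at 24.4 and 19.998 FPKM (-0.28). The 14 listed genes elsewhere lay between -0.17 and 0.22.

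**Figure D5:**
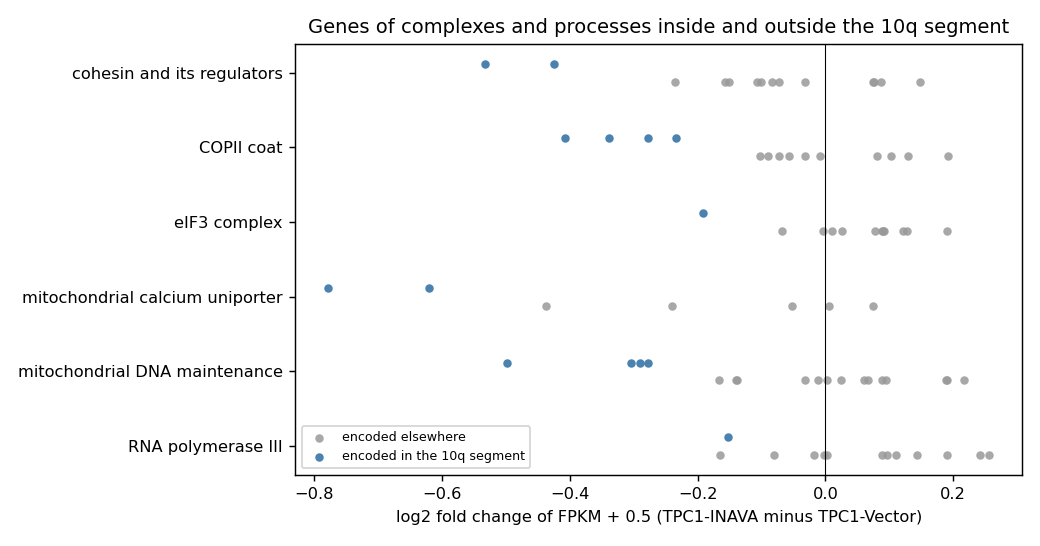
Log2 fold change of FPKM + 0.5 (TPC1-INAVA minus TPC1-Vector, horizontal axis) of the genes in 6 lists of complexes and processes (vertical axis). Blue points are the 14 genes encoded in the segment and grey points the 64 encoded elsewhere, and all blue points lie below 0. The segment was chosen from these fold changes.

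In the PI3K-AKT pathway, the translation repressor gene EIF4EBP2 in the segment was at 35.2 and 28.8 FPKM (-0.29). The 33 other pathway genes had a median of -0.02, with 17 lower, 4 at least 1.2-fold lower and 2 at least 1.2-fold higher. PIK3CA, a catalytic subunit of PI3-kinase, was at 10.2 and 7.67 FPKM (-0.39), and AKT1 at 83.7 and 86.4 FPKM (0.05). The transcription factor gene FOXO3, which AKT holds out of the nucleus, was at 6.76 and 8.90 FPKM (0.37).

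The segment was chosen from these fold changes, so the medians of chromosomes are set beside that of the members as a description only. Over 24 chromosomes, with chromosome 10 counted without the segment range, medians ran from -0.02 on chromosome 15 to 0.13 on chromosome 20. Chromosome 3 had the highest share of genes at least 1.2-fold lower, 14.8%, or 8.24% without a block at 3q25 to 3q27. This block of 96 genes had a median of -0.30, with 84 lower and 54 at least 1.2-fold lower, and PIK3CA lies there. The opposite was seen in distal 20q, where 148 genes had a median of 0.34 and 16 were lower. The rest of chromosome 20 had a median of 0.02. Both blocks were also chosen from this contrast, so they are set beside the members as a description.

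Gene structure went little with the fold change among members. Spearman's correlation of the fold change was -0.093 with the mean FPKM (297 members) and -0.062 with the gene span (289 members matched to GENCODE release 29). These points share the same libraries. By gene span, the shortest group (up to 30.6 kb, 96 members) had a median of -0.30 and the longest (from 73.3 kb, 97 members) a median of -0.37. Outside the range, the median was 0.03 in the shortest group and -0.02 in the longest. All 4 members that were at least 1.2-fold higher were in the longest group. Outside the range, 304 of 3066 genes in the longest group and 679 of 5453 in the shortest were at least 1.2-fold higher. Genes on the forward strand (160) had a median of -0.31 and those on the reverse strand (129) a median of -0.36. Of the 289 matched members, 284 were matched to a protein coding gene. ZNF503 was matched to a long noncoding RNA gene, so its biotype and gene span are those of that match.

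Promoter letters of members were close to those of other expressed genes. RefSeq promoters were matched for 246 members, with a median GC content of 65.5%, against 65.7% for the 9238 promoters of genes at 0.5 FPKM or more. A GC box stood in 68.3% of member promoters, against 71.4% of expressed and 44.6% of all 27305 promoters. The CCAAT box was found in 33.7% (36.9% of expressed, 35.7% of all), the TATA box in 3.66% (5.01% and 11.95%) and the E-box in 11.4% (10.5% and 7.43%). Members with a CCAAT box had a median fold change of -0.37 and those without one -0.31. The order was the reverse for the GC box (-0.32 with and -0.34 without). It was also the reverse for the TATA box (-0.29 in 9 promoters with it and -0.33 without) and the E-box (-0.30 and -0.33). These matches describe letters in a window and are not binding sites.

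The cells were checked against markers. PAX8, a transcription factor of the thyroid lineage, was at 60.1 FPKM in TPC1-Vector against 55.7 in TPC1-INAVA, and FOXE1 was at 5.26 and 5.89 FPKM. The keratin genes moved apart, with KRT8 at 23.4 and 10.5 FPKM (-1.12), KRT18 at 140 and 212 FPKM (0.59) and KRT7 at 1.97 and 2.01 FPKM (0.03). Of 15 thyroid and epithelial markers, 10 had no row in the table used here, among them TG and TSHR. Of 12 markers of other cell types, 5 had a row, and their summed level was 9.88 FPKM in TPC1-Vector against 12.1 in TPC1-INAVA. Most of that sum was the macrophage marker CD68, at 5.76 and 8.67 FPKM (0.55). The haemoglobin gene HBB was also higher at 0.645 and 1.199 FPKM (0.57), while the fibroblast markers PDGFRB (2.24 and 1.39 FPKM, -0.53) and COL1A1 (0.937 and 0.571 FPKM, -0.42) were lower. Values of these markers ran from 0.236 to 8.67 FPKM, and their part in the results was not tested.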

How the data were processed

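RNA-seq covered 2 groups of TPC1 cells with 2 libraries each. Expression was deposited as FPKM with the libraries of a group already combined, which leaves 1 value per gene and group. The submitters' processing notes name CASAVA, Cufflinks 2.1.1, Cuffdiff and hg38. For library preparation, a NEBNext Ultra kit stands in the labels and a VAHTS kit in the methods. The table also holds the authors' log2 ratios, directions, p-values and q-values, which were not used. Depth per library is unknown.

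Here log2(FPKM + 0.5) was compared between groups with Python 3.11.15, numpy 2.4.6, pandas 2.3.3 and scipy 1.17.1, and figures were drawn with matplotlib 3.10.9. No test was run. A gene was called at a change of at least 1.2-fold. The script was tested on simulated data. Members and lists were chosen with earlier results of these data known. Deposited starts count from 0 (110 of 289 matched members equal the GENCODE release 29 start after adding 1, and 1 as deposited), so IPMK was included. Without it, a choice made after seeing the data, 296 members remain.

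Named genes were the 10 lowest and 5 highest fold changes among members at 1 FPKM or more in the higher group, the 10 highest means, 3 at each end, 3 on each side of the limit of 0.5 FPKM, tumour suppressors, members in lists of complexes, INAVA, CCDC6 and RET. Some genes covered by this rule are not reported here. In all, 43 members overlap another gene of the table, so their values may be split. Alternatives were pseudocounts of 0.1 and 1, other filters, median-of-ratios and quantile scaling, own positions, protein coding members, and inclusion of the genes left out by name.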

Additional observations from a re-analysis of the deposited data

How the results depend on the processing

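No paired analysis was possible because the table gives a single value for each group, and leaving out each library was not run either. The median of members ranged from -0.35 to -0.30 over the alternatives, with the value of -0.30 at a pseudocount of 1, which shrinks the change of weak genes. With a minimum of 10 FPKM, 178 of 180 members were lower and 130 were at least 1.2-fold lower, since fewer genes were counted. In windows of 10 Mb, the highest median was -0.20. Quantile normalization turned C10orf95 from 0.02 to -0.02 and the median of all genes from 0.0033 to -0.0063, both close to 0, and no other value compared changed its direction. The other 30 summary values stayed close to those reported. Members at least 1.5-fold lower numbered 13 to 40 and those at least 2-fold lower 0 to 7, with 3 at a pseudocount of 1. PALD1 moved from -1.06 to -1.74 with a pseudocount of 0.1 and to -0.72 with 1. Over the alternatives, the median of all genes lay between -0.0063 and 0.0035. Since depth is unknown, no counting error can be given for weak members such as PALD1, STOX1 and RHOBTB1.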

Other observations

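The table lists 2 further expressed genes of chromosome 10 on alternate contigs, outside the rule. DLG5, a scaffold protein of cell polarity that GENCODE release 29 places in the segment at chr10:77790791-77926526, was at 16.4 FPKM in TPC1-Vector against 13.2 in TPC1-INAVA (-0.30 on the log2 scale). MARCH8, a membrane ubiquitin ligase gene placed before the segment at chr10:45454585-45594906, was at 7.76 and 6.19 FPKM (-0.31).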
